A study of Mus musculus with 3 samples.

Results

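CTCF peaks made mostly of repeated DNA were described in mouse LSK cells, the bone marrow population that holds hematopoietic stem cells and multipotent progenitors. The peaks came from 1 chromatin immunoprecipitation sequencing (ChIP-seq) library of adult male C57BL6 mice, made with an antibody against CTCF from cells sorted as cKit+ and Sca1+ that lacked lineage markers (CD4-, CD8-, CD45R-, CD11b-, Ly6g-, Ter119-) and were IL7Ra-. How many mice gave the cells is not stated. The other 2 samples of the series, the input DNA of LSK cells and of megakaryocyte-erythrocyte progenitors, were not analysed here. A peak was counted as repeat-rich where over 50% of its bases are soft-masked. Such bases are written in lower case in the mouse genome sequence (build mm10, GRCm38) as a mark of repeated sequence. How they were marked, and to which kinds of repeat they belong, is not known here. There were 1173 such peaks among 18945, or 6.19% (95% Wilson interval 5.86 to 6.54), and they covered 809133 bp. The 17772 other peaks served for comparison. With 1 library there is no replicate error: every interval below covers only the number of peaks, sites or genes counted, no test was made, and the read depth is not known from the peak list.

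CTCF is a zinc finger protein that binds a long, well-defined DNA motif, and, with the cohesin ring, anchors chromatin loops and domain boundaries. Much of the mouse genome descends from transposable elements, which copy themselves into new places and can carry a protein's binding motif with them. In the mouse, short interspersed elements of the B2 class are known to have spread copies of the CTCF motif in this way. Reads from young repeats can match many places in the genome, so that the peaks in them are harder to place than peaks in unique DNA.

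The core CTCF motif, 12 bases with some positions free, was searched on both strands of every peak. It lay wholly in soft-masked sequence in 58 repeat-rich peaks. The 5 of these sites in the peaks with the highest fold enrichment are printed, to show what motifs in soft-masked sequence look like. Each has 20 bases on either side as read along the motif. The core motif is in capitals. The names give the nearest protein-coding gene by transcription start site (TSS).
Apob, chr12:8059766-8059777, plus strand: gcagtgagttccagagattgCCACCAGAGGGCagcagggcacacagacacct
Psmd12, chr11:107512133-107512144, plus strand: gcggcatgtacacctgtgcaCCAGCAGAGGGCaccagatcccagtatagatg
1810055G02Rik, chr19:3724966-3724977, plus strand: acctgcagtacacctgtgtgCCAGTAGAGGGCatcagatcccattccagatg
Lmx1b, chr2:33682415-33682426, plus strand: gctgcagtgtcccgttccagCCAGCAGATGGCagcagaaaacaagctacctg
Amer3, chr1:34602560-34602571, minus strand: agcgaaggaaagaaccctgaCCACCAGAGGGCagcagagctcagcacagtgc

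By any annotated gene, the sites nearest to Apob and Psmd12 lay in introns, the first outside Apob itself, and the other 3 lay between genes. The 5 peaks had fold enrichments of 21.5, 21.5, 16.3, 16.0 and 16.0. The Psmd12 and 1810055G02Rik sites look alike well beyond the motif. The commonest base at each position over all 58 masked sites is printed for comparison.
Commonest bases: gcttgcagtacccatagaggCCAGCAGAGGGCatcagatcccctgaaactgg
The 8 bases that follow the motif in this line, atcagatc, followed only 2 of 18558 unmasked motif sites of the genome. The base T at the second of these positions was found in 51.7% of the 58 masked sites and in 6.28% of the unmasked motif sites inside peaks. Only 13 of the 58 sites had all 8 bases, and 31 had them with up to 1 mismatch. Over chromosomes 1 to 19 and X, 619 wholly masked motif sites were followed by this word with up to 1 mismatch, against 31 unmasked sites. Of the 619, 57 lay in a peak (9.21%, 7.18 to 11.7), and of the 2116 other masked sites 372 did (17.6%, 16.0 to 19.3). So the motif copies that share these flanking bases were mostly outside peaks, and were inside peaks of any kind less often than other masked copies. Repeat-rich peaks alone held 31 of the 619 and 27 of the 2116, but the word was read from the masked sites in those same peaks, which fixes that order.

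The share of masked copies in a peak also differed between forms of the motif. The form CCAGCAGAGGGC was the commonest among masked sites in repeat-rich peaks, with 36 of the 58, and CCAGTAGAGGGC came next, with 13. Of 885 masked genomic copies of the first form, 237 lay in a peak (26.8%, 24 to 29.8), against 381 of 1007 unmasked copies (37.8%, 34.9 to 40.9). Of 489 masked copies of the second form only 33 did (6.75%, 4.85 to 9.33), against 152 of 473 unmasked copies (32.1%, 28.1 to 36.5). In both comparisons the masked and unmasked copies hold the same 12 bases. Within the first form, 38 of 330 masked copies followed by the word lay in a peak (11.5%, 8.51 to 15.4), against 199 of 555 masked copies without it (35.9%, 32.0 to 39.9). Within the second form the shares were 16 of 260 (6.15%, 3.82 to 9.76) and 17 of 229 (7.42%, 4.69 to 11.6), whose intervals overlap. The form CCACTAGAGGGC had the highest share of masked copies in a peak of the 6 forms listed, 64 of 142 (45.1%, 37.1 to 53.3), but only 2 of them were in repeat-rich peaks.

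A second kind of repeat stood out because its copies were nearly identical to each other. Peaks were linked where they shared at least 50% of their 32-base words in both directions, and 54 repeat-rich peaks (4.60%, 3.55 to 5.96) fell into linked sets, against 275 of the other peaks (1.55%, 1.38 to 1.74). The largest set had 16 peaks on 13 chromosomes, all of them repeat-rich, with a median of 11.2% of their words found once in the genome. The fold enrichments ran from 6.53 to 26.8 with a median of 14.7, higher than the median of all repeat-rich peaks. None of the 16 held the core motif, but 10 held the form CCACTAGATGGT, which departs from it by C12T, counted from 1 at the first motif base. A 42-base stretch shared without change by 6 of these peaks, and variants of it, are printed because they show how little the copies differ. The 12 bases of the motif-like site are in capitals.
Mrs2, chr13:25015405-25015446, plus strand: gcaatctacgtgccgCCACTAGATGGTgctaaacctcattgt
Cyp4f18, chr8:72025056-72025097, minus strand: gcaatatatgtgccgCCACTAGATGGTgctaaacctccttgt
Hmgcs1, chr13:119669611-119669652, plus strand: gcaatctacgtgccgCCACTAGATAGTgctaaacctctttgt
5430403G16Rik, chr5:109652800-109652841, plus strand: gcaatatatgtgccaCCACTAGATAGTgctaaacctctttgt

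The peak at Mrs2, a magnesium channel of mitochondria, had a fold enrichment of 26.8. The peak near Cyp4f18, which encodes a fatty acid hydroxylase, had 14.7. The peak near Hmgcs1, an enzyme of cholesterol synthesis, had 15.1, and the peak near 5430403G16Rik had 6.53. The first pair carry the site without change, and the second pair carry G10A in it. In the set, the 5 peaks with the highest values all carried the unchanged stretch, and the 2 lowest values, 8.16 and 6.53, were in peaks with 5 differences from it. The order was not strict: the remaining unchanged copy, near Zfp974, had 14.7, below the Hmgcs1 peak with 2 differences.

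The stretch was then looked for in the whole genome, and most copies lay in a CTCF peak. With up to 6 differences there were 88 copies on chromosomes 1 to 19 and X, and 73 of them were in a peak (83.0%, 73.8 to 89.4), each in a peak of its own. The 16 linked peaks chose the stretch, and without them 57 of 72 copies were in a peak (79.2%, 68.4 to 86.9). For comparison, 30.3% of all 22944 exact core motif sites of the genome were in a peak. The unchanged stretch occurred 17 times, on 10 chromosomes, and all 17 copies were in a peak, with fold enrichments between 13.1 and 26.8. For 6 of these copies that was fixed in advance, since the stretch was read from their linked peaks. With 5 or 6 differences 8 of 15 copies were in a peak (53.3%, 30.1 to 75.2). Of the 66 copies with an unchanged site 58 were in a peak (87.9%, 77.9 to 93.7), with a median fold of 14.4, and of the 22 with 1 difference in the site 15 were (68.2%, 47.3 to 83.6), with a median fold of 8.81. Without the 16 linked peaks the counts were 48 of 56 (85.7%, 74.3 to 92.6) and 9 of 16 (56.3%, 33.2 to 76.9), whose intervals overlap. All 15 carried G10A, which 18 copies had, while the 3 copies with C2A and the single copy with C1T were outside peaks. Of the 73 copies in peaks, 46 were in repeat-rich peaks and 27 in other peaks, whose masked share ran from 28.8% to 50% around a median of 36.4%. Per the study's methods, the mapping kept reads that match several places. Reads of 1 copy may thus have been counted at another, and the values of near-identical copies cannot be told apart.

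The widest peak in the whole list was a repeat-rich peak on chromosome 12. It spans chr12:59035085-59039172, 4088 bp between genes, 1163 bp from the small nuclear RNA gene Gm22973 and 21692 bp from the TSS of Gemin2, a factor of spliceosomal RNP assembly. All of its bases are soft-masked. Its fold enrichment of 8.65 was near the median, but its −log10 p of 118 ranked 3 among all peaks. The peak is a tandem array: 97.4% of its 32-base words recur inside it, 98.7% of the spacings between copies of a word are 95 bp, and its commonest words occur 43 times. The unit found 38 times without change is printed, with the motif-like site in capitals.
Unit of 95 bases: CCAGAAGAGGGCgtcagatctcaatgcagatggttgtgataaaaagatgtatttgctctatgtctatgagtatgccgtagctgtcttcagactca
The peak held 42 such sites, all the same 12 letters with 1 mismatch to the core motif and all on the plus strand, more sites than any other peak. The 8 bases after the site, gtcagatc, differ from the word after the masked motif sites above only by A1G.

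Repeat-rich peaks were weaker than the others, though a few were among the strong ones. The median fold enrichment over background, as the peak caller gave it, was 8.48 (95% interval of the median 8.16 to 8.48) against 10.2 (10.1 to 10.4), and the median −log10 p was 8.81 (8.35 to 9.21) against 12.9 (12.7 to 13). The middle 50% of repeat-rich peaks had folds between 6.85 and 11.1, and of other peaks between 7.83 and 13.4, so the ranges overlap widely. Of the repeat-rich peaks, 55 (4.69%, 3.62 to 6.05) were among the strongest 10% of all peaks by fold and 249 (21.2%, 19 to 23.7) among the weakest 10%. A false discovery rate listed at 0 was given to 125 repeat-rich peaks (10.7%, 9.02 to 12.6), against 20.5% of all peaks. Seen the other way, the share of repeat-rich peaks fell from 13.1% (11.7 to 14.7) in the weakest 10% to 2.90% (2.24 to 3.76) in the strongest.

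**Figure D1:**
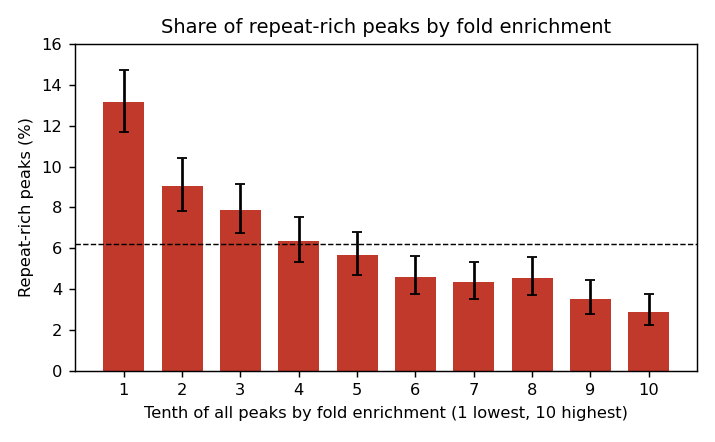
Bars give the percentage of repeat-rich peaks in each of 10 equal classes of all 18945 peaks ordered by fold enrichment, from 1, the lowest, to 10, the highest. Error bars are 95% Wilson intervals and the dashed line is the share over all peaks, 6.19%; the bars go from 13.1% in the lowest class to 2.90% in the highest.

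Repeat-rich peaks were also slightly narrower, with a median width of 679 bp (671 to 689) against 717 bp (715 to 719). Among peaks between 592 and 749 bp wide, the middle 50% of repeat-rich widths, the median fold was still 8.48 against 9.46. Among the narrowest 10% of peaks 10.7% were repeat-rich, in the widest 5.07%. The share was not lowest at the widest end, where 34 repeat-rich peaks were over 1 kb (2.90%, 2.08 to 4.02), against 354 other peaks (1.99%, 1.80 to 2.21). Those 34 include the array on chromosome 12 and much of a group on chromosome X described below.

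The 10 repeat-rich peaks with the highest fold had values between 22.5 and 29.0. The strongest, chr11:100300086-100300875, was 80.9% masked, lay between genes 19010 bp from the TSS of Eif1, a translation start factor, and had a −log10 p of 67.0. Next came a peak in an intron 84115 bp from the TSS of Mapt, the gene of the microtubule protein tau, at 27.7. An intronic peak 4666 bp from the TSS of Pla2g1b, a secreted phospholipase, followed at 27.4. The Mrs2 peak was the fourth. The other 6 lay nearest to Zbtb8os (24.8), Slc24a1 (24.8), Dusp23 (24.2), Smurf1 (23.2), Ggcx (22.5) and Ctss (22.5), of which Smurf1 encodes a ubiquitin ligase, Ggcx the vitamin K-dependent carboxylase and Ctss the protease cathepsin S. Of the 10, only the Dusp23 peak held an exact motif, 7 others held a site with 1 mismatch, and the Pla2g1b and Ggcx peaks held neither. Over all repeat-rich peaks, 16.0% held an exact motif and 79.8% a site with up to 1 mismatch, so the 10 were not set apart by this. These peaks are mostly mappable sequence, with 60.1% to 100% of words found once in 9 of them and 7.22% in the Mrs2 peak.

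At the other end, 20 peaks were wholly masked. The 5 with the highest fold among them had values of 8.65, 7.50, 5.87, 5.87 and 4.89. The first is the array on chromosome 12. The second lay in an intron 37454 bp from the TSS of Sh2d4a, an adaptor protein gene. The peaks 97999 bp from the TSS of Nampt and 2129 bp from that of Usp26, on chromosome X, lay between genes. The last lay in an intron within Lsamp, 677469 bp from its TSS. The words of the Nampt, Usp26 and Lsamp peaks had median copy numbers of 8950, 1732 and 8214 in the genome, and none of their words was unique.

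Among the repeat-rich peaks, those over 90% masked were the weakest, and those over 80% masked rarely held a motif. The median fold was 8.81 (8.48 to 9.46) in the 597 peaks over 50% to 60% masked, 8.16 (7.83 to 8.81) in the 286 over 60% to 70%, 8.32 (7.50 to 8.81) in the 162 over 70% to 80%, 7.50 (6.53 to 8.16) in the 74 over 80% to 90%, and 4.88 (4.57 to 5.49) in the 54 above 90%. The first 3 classes have overlapping intervals and the last stands below the rest. The share of words found once fell over the same classes, from a median of 86.9% to 1.45%, and its part in the lower fold was not tested. The exact motif was in 118 of 597 peaks of the first class (19.8%, 16.8 to 23.1), 40 of 286 of the second (14%, 10.4 to 18.5), 27 of 162 of the third (16.7%, 11.7 to 23.2) and 3 of 74 of the fourth (4.05%, 1.39 to 11.3). In the last it was in 0 of 54, which allows up to 6.64%. Without linked sets and the groups on chromosome X, the shares of the first 4 classes were 20%, 14.5%, 19% and 4.41%, and the last class kept 39 peaks, with a median fold of 4.89 and no exact motif.

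**Figure D2:**
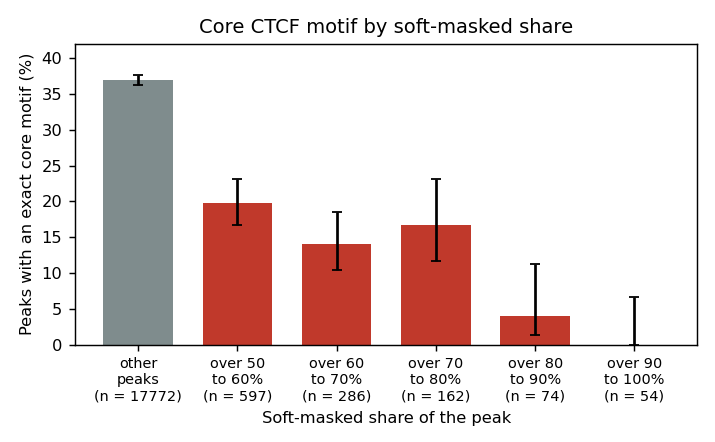
Bars give the percentage of peaks that hold an exact core CTCF motif, for the other peaks (grey) and for repeat-rich peaks by their soft-masked share (red), with n under each bar and 95% Wilson intervals. The other peaks stand at 36.9%, the first 3 repeat-rich classes between 14% and 19.8%, the fourth at 4.05% and the last at 0%.

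The exact core motif was in 188 repeat-rich peaks (16.0%, 14 to 18.2) and in 36.9% of the others (36.2 to 37.6), with 35.6% over all peaks. With 1 mismatch allowed the 2 classes came close, at 79.8% (77.4 to 82.0) and 83.9% (83.3 to 84.4). Windows of the same width 10 kb to the left and right of repeat-rich peaks held a site with up to 1 mismatch in 17.4% and 18.1% of cases, and an exact one in 1.11% and 1.88%, so repeat-rich peaks hold motif-like sites far more often than their surroundings. The nearest such site lay a median of 30 bp (27 to 32.0) from the midpoint of a repeat-rich peak and 28.0 bp (27 to 28.0) from that of another peak. Repeat-rich peaks are thus centred on a motif-like site about as closely as the others.

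These sites were not all in soft-masked sequence. Of the 188 repeat-rich peaks with an exact motif, 130 had it at least in part in unmasked sequence. In the 936 repeat-rich peaks with a site of up to 1 mismatch, the site nearest the midpoint was wholly masked in 619 (66.1%, 63.0 to 69.1), close to the 62.2% of all their bases that are masked. In the other peaks it was wholly masked in 9.63% (9.17 to 10.1), against 16.2% of their bases. Repeat-rich peaks with a wholly masked exact motif had a median fold of 8.46 (7.50 to 9.79) and those whose motif was not wholly masked 9.79 (9.14 to 10.8), whose intervals overlap. Repeat-rich peaks with an exact motif had a median fold of 9.46 (8.81 to 10.1), and other peaks with one had 11.1 (10.8 to 11.1), so the gap in strength was also present among peaks with a motif. Over the genome, 429 of 2735 wholly masked exact sites lay in any peak (15.7%, 14.4 to 17.1), against 6339 of 18558 unmasked ones (34.2%, 33.5 to 34.8). Only 1 repeat-rich peak held more than 1 exact motif, a peak between genes 4339 bp from the TSS of Sh3pxd2b, an adaptor of podosomes, with a fold of 12.7.

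The rule sets how much of a peak is masked, so the masking along the peaks is given only as a description. In repeat-rich peaks the 25-bp window at the midpoint was 61.5% masked on average, somewhat less than the highest value, 66.1%, which lay 125 bp to the left. Windows beyond 1 kb from the midpoint were 34.7% to 39.5% masked. In the other peaks the values were 10.3% at the midpoint and 24.6% to 25.9% beyond 1 kb. The masked part was usually in pieces: 772 repeat-rich peaks had 5 or more masked blocks (65.8%, 63.1 to 68.5) and only 29 had a single block. The longest masked block inside a peak had a median of 194 bp (187 to 200). In all, 847 repeat-rich peaks (72.2%) were also over 50% masked in their central 200 bp. Another 920 peaks were over 50% masked in that centre without being repeat-rich as a whole.

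**Figure D3:**
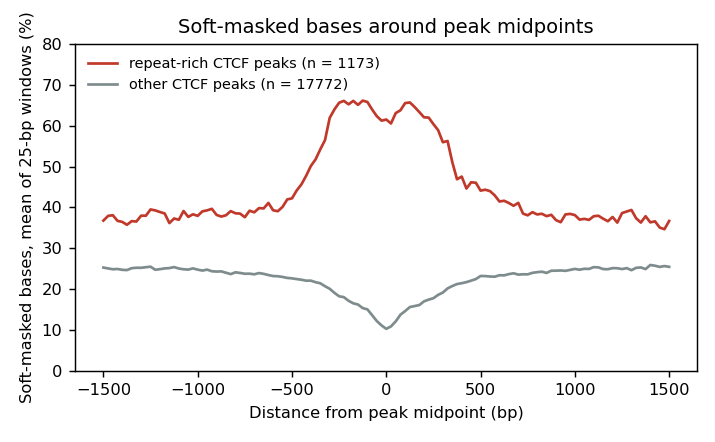
Lines give the mean percentage of soft-masked bases in 25-bp windows within 1500 bp of the peak midpoint, for 1173 repeat-rich peaks (red) and 17772 other peaks (grey). The red line is at 61.5% at the midpoint, with higher values on both sides, and falls to 34.7% to 39.5% beyond 1 kb, and the grey line has its lowest point, 10.3%, at the midpoint.

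Repeat-rich peaks held less G and C, a median of 43.5% (43.2 to 43.8) against 47.4% (47.2 to 47.5). Their CpG content relative to that expected from base composition was 0.197 (0.189 to 0.205), against 0.255 (0.252 to 0.257). The GC content of the 10 kb on either side hardly differed, at 45.6% and 45.9%, while those flanks were more often masked around repeat-rich peaks, at a median of 32.8% (32.2 to 33.4) against 25.6% (25.4 to 25.8). Simple tandem runs with a period of up to 6 bases and a length of at least 20 made up over 10% of the bases in 93 repeat-rich peaks (7.93%, 6.52 to 9.62) and in 1.70% of others.

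Most of the sequence in repeat-rich peaks was unique. A median of 82.4% (81.4 to 83.7) of their 32-base words occurred once in the genome, against 100% in the other peaks. All words were unique in 33 repeat-rich peaks (2.81%, 2.01 to 3.92) and in 62.1% of the others. Fewer than 50% were unique in 138 (11.8%, 10.05 to 13.7), against 2.85% of all peaks. Those 138 had a median fold of 5.87 (5.22 to 7.16), and the 1035 more mappable ones 8.48 (8.16 to 8.81). The 401 other peaks below the same 50% limit had 9.46 (8.86 to 10.1). These sets were matched by that limit alone: the median share of unique words was 7.35% in the 138 and 10.8% in the 401. The 138 also include the groups of 14 and 6 peaks on chromosome X described below, with folds of 2.94 to 6.53.

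Repeat-rich peaks were rare at gene starts but common at a short distance from them. Within 1 kb of any annotated TSS lay 77 of them (6.56%, 5.28 to 8.13), against 14.1% of all peaks. Within 1 kb of a protein-coding TSS lay 29 (2.47%, 1.73 to 3.53), against 9.78% of the others (9.35 to 10.2), and only 2 covered such a TSS, against 882. Between 1 and 10 kb the order turned, with 33.6% (30.9 to 36.3) of repeat-rich peaks and 22.8% (22.1 to 23.4) of others. Beyond 100 kb it turned again, with 9.21% (7.68 to 11) against 13.9% (13.4 to 14.4). The genome itself is less masked at starts: 16.9% of bases within 1 kb of a protein-coding TSS, 31.7% between 1 and 10 kb, 33.7% between 10 and 100 kb and 36.4% beyond. Among all peaks of the same 4 classes, 1.64%, 8.88%, 6.32% and 4.19% were repeat-rich, so their share was highest between 1 and 10 kb although masking was highest farthest from genes.

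**Figure D4:**
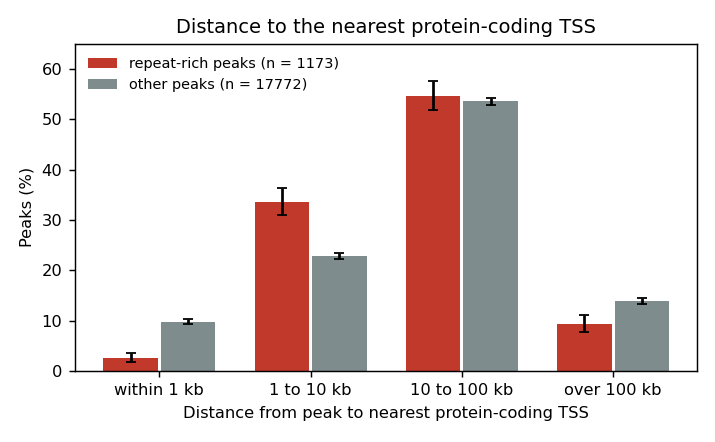
Bars give the percentage of repeat-rich peaks (red, n = 1173) and of other peaks (grey, n = 17772) in 4 classes of distance to the nearest protein-coding TSS, with 95% Wilson intervals. The repeat-rich bar is lower within 1 kb (2.47% against 9.78%) and beyond 100 kb (9.21% against 13.9%) and higher between 1 and 10 kb (33.6% against 22.8%).

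By midpoint, 39 repeat-rich peaks were in exons (3.32%, 2.44 to 4.51), 512 in introns (43.6%, 40.8 to 46.5) and 622 between genes (53.0%, 50.2 to 55.9). Of the others 10.7% were in exons, 43.9% in introns and 45.3% between genes. The lower share in exons was thus made up between genes and not in introns. The nearest gene of any kind was protein-coding for 54.2% of repeat-rich peaks and 50.5% of others, and a pseudogene for 18.7% (16.5 to 21.0) and 14.7% (14.1 to 15.2). The 1173 peaks were nearest to 1087 different protein-coding genes, and only 7 genes were the nearest of 3 or more. Spin4 was nearest to 17 and 4932411N23Rik to 6, both on chromosome X.

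Among the 29 peaks within 1 kb of a protein-coding TSS, the 8 with the highest fold lay at Prodh2 (16.0), Gm4070 (14.4), Gm7075 (14), Npl (13.1), Spryd4 (12.7), Gvin1 (12.7), Hspb6 (12.4) and Mettl2 (12.4). Prodh2 breaks down hydroxyproline, Npl sialic acid, Gvin1 is an interferon-induced large GTPase and Hspb6 a small heat shock protein. The peak at Gm7075 covered the TSS. The Gm4070 and Gvin1 peaks formed a linked set, with 0% and 0.858% of their words unique and a median of 3 copies a word, so reads of 1 may have been counted at the other.

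Lists of blood genes held too few genes to be told apart from all genes. Over all 21911 protein-coding genes, 550 had one within 10 kb of the TSS (2.51%, 2.31 to 2.73) and 29.1% had any peak there. Of 20 stem and progenitor genes, such as Gata2 and Runx1, 9 had a peak within 10 kb and 0 a repeat-rich one, which allows up to 16.1%. Of 21 erythroid genes 9 had a peak and 0 a repeat-rich one, of 15 megakaryocyte genes 3 and 0, and of 19 lymphoid genes 6 and 0. Among 18 genes of granulocytes and monocytes 6 had a peak, and Ctsg, the neutrophil protease cathepsin G, had a repeat-rich one 3118 bp from its TSS, with a fold of 6.20, 66.0% masked and with 2 sites of up to 1 mismatch. The intervals of all 5 lists include 2.51%. Within 50 kb of the TSS a repeat-rich peak lay near 1 of the 20 stem and progenitor genes (5.0%), 3 of 21 erythroid (14.3%), 3 of 15 megakaryocyte (20%), 4 of 18 granulocyte and monocyte (22.2%) and 1 of 19 lymphoid genes (5.26%), against 11.1% of all genes, and these intervals too include the value of all genes. Within 10 kb, 0 of 10 genes of CTCF and cohesin had a repeat-rich peak, which allows up to 27.8%, and 4 had another peak. Of 12 genes that silence repeats, such as Trim28 and Setdb1, 0 had one there, which allows up to 24.2%, and 2 had another peak. Within 50 kb, 1 of the 10 (10%) and 2 of the 12 (16.7%) had a repeat-rich peak, against 11.1% of all genes.

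The larger gene families ranged from 0 to 10.2%. They were taken by gene symbol alone, with Rpl or Rps then digits for ribosomal protein genes. Whether each such gene encodes a ribosomal protein was not checked. Of 98 ribosomal protein genes 10 had a repeat-rich peak within 10 kb (10.2%, 5.64 to 17.8) and 59 had any peak. Those with a repeat-rich peak included Rpl22 (12.1), Rpl3 (12.1), Rps16 (11.8), Rpl26 (11.5), Rps13 (10.4), Rpl6 (10.1), Rpl27 (8.16), Rpl5 (6.85) and Rps2 (6.85), with folds in brackets, each with a peak of its own. Of genes with any peak, the repeat-rich share was 16.9% here and 8.64% over all genes. Of 413 zinc finger genes 10 had one (2.42%, 1.32 to 4.40), among them Zfp974 (14.7), whose peak belongs to the linked set of 16, and Zfp667 (13.7). The other 8 were Zfp318, Zfp335, Zfp37, Zfp40, Zfp449, Zfp553, Zfp579 and Zfp78, with folds between 6.85 and 10.1. Of 1134 olfactory receptor genes 6 had one (0.529%, 0.243 to 1.15), but only 4.32% had any peak. They were Olfr372 (18), Olfr462 (15.3), Olfr1396 (11.8), Olfr735 (9.14), and Olfr571 and Olfr572, which share a peak (10.4). Of 328 vomeronasal receptor genes only Vmn1r3 had one (11.1), again a peak of the linked set of 16. Of 39 Hox genes 0 had one, which allows up to 8.97%, though 27 had a peak.

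Chromosome X, of which male cells have a single copy, stood apart. There 46 of 248 peaks were repeat-rich (18.5%, 14.2 to 23.9), against 1127 of 18697 on the autosomes (6.03%, 5.70 to 6.38). The autosomes ran from 4.11% on chromosome 6 to 7.88% on chromosome 4. X is also the most masked, with 46.8% of its known bases against 30.6% to 35.8% on the autosomes. Per length the order was the reverse, with 0.269 repeat-rich peaks per Mb on X and 0.458 on the autosomes, since X had few peaks of any kind. In groups of 3 or more, each within 50 kb of the next, lay 23 of the 46. Without those, 23 of 225 peaks were repeat-rich (10.2%, 6.91 to 14.9), still above the autosomal share. The median fold of the 46 was 5.55 (4.86 to 6.85), against 7.83 in the other peaks of X (7.50 to 8.16). Without the groups it was 7.50.

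The largest group held 14 peaks in 38380 bp, chrX:94877750-94916129, with no other peak among them and no protein-coding gene. The nearest coding TSS was that of Spin4, which encodes a reader of histone marks, at least 110553 bp away. The folds were low throughout, from 2.94 to 6.53 with a median of 4.33, while the widths were large, from 887 to 2373 bp with a median of 1454 bp. The peaks were 87.5% to 96.1% masked, their words had a median of 22.5 copies, at most 7.44% of a peak's words were unique, and none held a site with even 1 mismatch. Of the words in the region 97.2% recur inside it. The commonest spacing between copies of a word was 2049 bp, but it made up only 13.3% of the spacings. A second group, of 6 peaks in 18281 bp at chrX:126746828-126765108, was alike, with folds of 4.0 to 5.55, 0% unique words, 98.9% of words recurring and no motif-like site. Its peaks were 51.2% to 79.5% masked, and the nearest coding TSS, that of 4932411N23Rik, was 50760 to 67864 bp away.

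**Figure D5:**
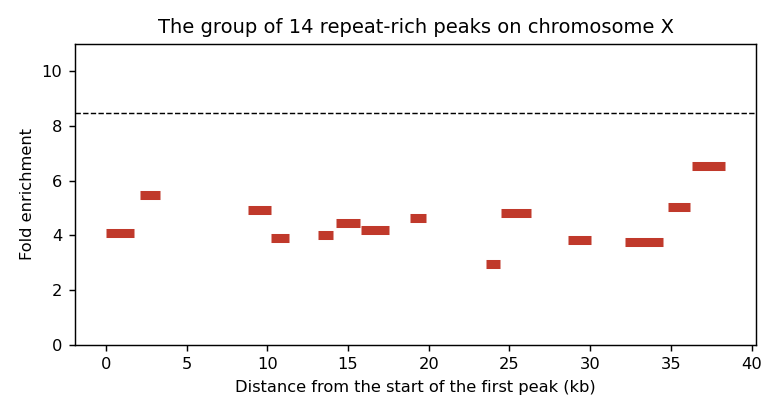
Each red bar is 1 of the 14 peaks of the group on chromosome X, drawn from its start to its end in kb from the start of the first peak, at the height of its fold enrichment. The dashed line is the median of all repeat-rich peaks, 8.48; all 14 lie below it, between 2.94 and 6.53.

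The third group was of another kind, with 5 peaks over 106100 bp around Lrp5, a Wnt co-receptor, at chr19:3619216-3725315. It had folds of 8.16, 7.18, 11.4, 8.16 and 16.3, 80.5% to 90.7% unique words, and 2 peaks with an exact motif. The strongest of the 5 is the 1810055G02Rik peak whose site is printed above. The peaks shared no linked set.

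Repeat-rich peaks had more neighbours than the others, and more often repeat-rich ones. Another peak lay within 10 kb of 465 (39.6%, 36.9 to 42.5), against 34.3% of all peaks. The nearest peak was itself repeat-rich for 144 (12.3%, 10.5 to 14.3), against 5.69% (5.36 to 6.04) for the others. On the autosomes alone, without the groups on X, it was 10.5% of repeat-rich peaks. The median distance from a repeat-rich peak to its nearest neighbour was 14911 bp (13155 to 17057), against 19187 bp (18663 to 19688). Of the 1173, 941 had no other repeat-rich peak within 50 kb, 162 formed pairs, and 70 were in 18 groups of 3 or more. Among the groups of 3, the one with the highest median fold (13.1) was at Rbms2, Gls2 and Spryd4 on chromosome 10.

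Of the smaller linked sets made only of repeat-rich peaks, 4 had 3 peaks each. In 1 set they lay on chromosomes 3, 10 and 13, near Olfm3, H60c and Gm10139, with folds of 3.23, 4.23 and 5.22 and a median of 17 copies a word. The 3 on chromosome 12 had folds of 7.18, 7.83 and 5.22. The 3 on chromosome 17 lay in introns of other genes, nearest to the TSSs of Phf10, Gm3435 and Ermard. Their folds were 5.55, 6.53 and 5.55, and each held a site with 1 mismatch. The last of the 4 sets belongs to the second group on X. The median folds of these 4 sets were below the 8.48 of all repeat-rich peaks. Of the 5 linked pairs, 3 had median folds above it, 13.5 for the Gm4070 and Gvin1 pair on chromosome 7, 11.4 for a pair on X and 10.1 for a pair on chromosomes 4 and 6, as had the set of 16.

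The limit of 50% fell in a run of peaks that look alike. Just inside it were peaks at 50.1% near Gmcl1, Os9 and Apob, with folds of 16.6, 7.83 and 21.5. Just outside were peaks at 50% near Mrgprb5 and Ext2 and at 49.9% near Ubr2, with folds of 20.2, 16.0 and 16.0. Exactly 2 of the 17772 other peaks were at 50%.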

How the data were processed

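CTCF ChIP-seq of LSK cells was analysed as 1 sample. Per the study's methods, reads were mapped with Bowtie, reads matching several places were kept, and peaks were called with MACS. The submitters' processing notes name Bowtie 1.0.0, bcl2fastq and mm10. The study's methods give another Bowtie version, so which mapping made this peak list is not settled here. Which settings and control the peak caller had is not stated. In the deposited peak list the authors gave fold enrichment as a ratio, −log10 of the p-value, and a false discovery rate, a p-value-like column whose scale is not stated, so only its order and its zeros were used. Start positions were read from 0 and are printed from 1.

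Masked bases, GC and words were read from the RefSeq GRCm38.p6 sequence, genes from GENCODE M21 on the same build. Words of 32 bases were counted on both strands of chromosomes 1 to 19, X and Y. Shares carry 95% Wilson intervals and medians exact binomial order-statistic intervals. The core motif, a 12-base pattern taken from general knowledge, was searched on both strands, and flanking windows were shifted by 10 kb. Distances to a TSS run from the nearest edge of the peak, and distances between peaks join midpoints. Scripts ran on Python 3.11.15 with numpy 2.4.6, numba 0.67.0 and networkx 3.6.1, and were tested on simulated sequence.

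The peaks and gene lists were chosen with earlier results of these data known. Named genes were the nearest to the 10 peaks with the highest fold, the 5 with the highest masked share (ties by fold), up to 8 within 1 kb of a coding TSS, the 3 largest groups, up to 6 linked sets, up to 6 peaks with 2 or more motifs, listed genes with a peak within 10 kb, and 3 peaks on either side of the limit. Genes that have the most repeat-rich peaks, the 42-base stretch and the word after the motif were singled out after their values were seen. Of the listed genes, 1 is not reported here by name.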

Additional observations from a re-analysis of the deposited data

How the results depend on the processing

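No paired analysis was possible because the list comes from 1 library. With 1 library and no read counts, the intervals limit only the counting of peaks. Of 60 alternatives, 20 stayed close to the reported value (a count within 1.5 times it, any other value within its interval) and 40 moved, and in none of the comparisons of fold, width, motif or TSS did repeat-rich and other peaks change order. Why values moved was not tested beyond what the alternative itself leaves in or out.

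The number of repeat-rich peaks, 1173, became 128 above 80% masked, 1767 by the central 200 bp and 390 in the 9472 peaks of lowest false discovery rate. Above 80%, the median fold was 6.20, the width 649 bp, the exact motif 2.34% (other peaks 35.9%) and the share within 1 kb of a TSS 3.91%. By the central 200 bp the motif was in 13.2% and 37.9%. In those 9472 the medians were 12.7 and 13.4 in fold and 758 and 764 bp in width, the motif was in 20.3% and 42%, 8.72% of repeat-rich peaks were within 1 kb of a TSS, 9.23% had a repeat-rich nearest peak, and 8.08% of masked and 20.2% of unmasked motif sites were occupied. With 1 mismatch the motif was in 79.8% and 83.9%, and in the central 200 bp of other peaks in 33.8%.

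Shares near a TSS, repeat-rich against other, were 2.47% and 9.78% for protein-coding genes, 32.0% and 33.8% within 5 kb, and 11.3% and 20.7% for every transcript start. With protein-coding genes alone, 1.88% of repeat-rich peaks were exonic, 38.6% intronic and 59.5% intergenic. Another peak lay within 5 kb of 22.7% and within 50 kb of 78.3%. Words of 24 bases were unique in a median of 71.6%. Occupied motif sites were 13.8% with any base masked and 32.2% when only wholly masked sites were left out. Chosen after seeing the data, the middle 50% of widths gave other peaks a fold of 9.46 and a motif share of 34.5%, and the autosomes a repeat-rich nearest peak for 10.5%. Within 50 kb the genes with a repeat-rich peak rose in 12 of the 13 sets, the Hox genes staying at 0 of 39, to 2442 over all coding genes, 27 ribosomal protein genes and 41 zinc finger genes.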
